A study of Sus scrofa with 20 samples.

Results

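The genes of the opioid peptides and their receptors were examined in the hypothalamus of German Landrace pigs. Members were the 7 genes PENK, PDYN, PNOC, OPRM1, OPRK1, OPRD1 and OPRL1, and every probe set that the platform annotation gives to one of them was taken, dim ones included. This gave 10 of the 47722 probe sets that were tested, for 5 of the 7 genes. No probe set was listed for OPRD1 and OPRL1, and these were not analysed here.

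The 20 animals comprised 10 high-reactive (HR) and 10 low-reactive (LR) pigs, with 1 Affymetrix Porcine Snowball array per animal. Coping behaviour had been scored in early life by the backtest, in which a piglet is turned on its back and its struggles are recorded. Animals were selected both by this behaviour and by haplotype at a genomic region associated with it, so that behaviour and haplotype cannot be told apart. All were of 1 breed. The labels call them adult, and by the study's methods they were slaughtered at some months of age. The labels give no treatment, sex or hybridisation batch. The tissue was bulk hypothalamus, so fewer cells of a type and less RNA per cell cannot be told apart.

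Opioid peptides are cut from larger precursors. PENK encodes the precursor of the enkephalins, PDYN that of the dynorphins and PNOC that of nociceptin. OPRM1 encodes the mu receptor, which binds enkephalins and beta-endorphin, and OPRK1 the kappa receptor, which binds dynorphins. OPRD1 and OPRL1 encode the delta receptor and the nociceptin receptor. These receptors act through inhibitory G proteins, which lower cyclic AMP, open potassium channels and close calcium channels, and so dampen neuronal firing and release. In the hypothalamus, opioid peptides are known to restrain hormone release, including that of the stress axis, and dynorphin is held in vasopressin neurons, in orexin neurons and, together with kisspeptin and neurokinin B, in neurons of the arcuate nucleus.

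In the RefSeq annotation of Sscrofa11.1, PENK lies at chr4:75525497-75530403 and OPRK1 at chr4:77399298-77429025. PDYN lies at chr17:33505075-33521534, PNOC at chr14:12101223-12134174 and OPRM1 at chr1:12634125-12702295. Positions of the single probe sets within these genes were not analysed here.

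No opioid probe set passed the test between HR and LR animals. The lowest adjusted p of limma among the 10 was 0.916, so that 0 of 10 were called at an adjusted p under 0.05, and over all 47722 probe sets 0 were called, which is 0 percent. At an unadjusted p under 0.05 there was 1 of the 10 opioid probe sets, the dimmest of OPRK1, against 2180 probe sets, or 4.57 percent, over the whole array. Mean log2 values were higher in HR for 6 of the 10 and lower for 4, but for 2 and 8 without LR replicate 3 or with the mean signal of background control probe sets as a covariate, so the count gives no direction. Single arrays also stood apart: LR replicate 3 held low PENK and PDYN, low OPRK1 in all but its dimmest probe set, and high OPRM1. PNOC and PENK followed the unspecific signal of the array.

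Values are on the log2 scale, so that 1 unit is a doubling, and differences are HR minus LR with the standard error of limma. Levels are compared only within a probe set. Of the 10 probe sets, 9 lay in the brighter 50% of the array, whose members averaged 5.21 or more on the log2 scale.

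**Figure D1:**
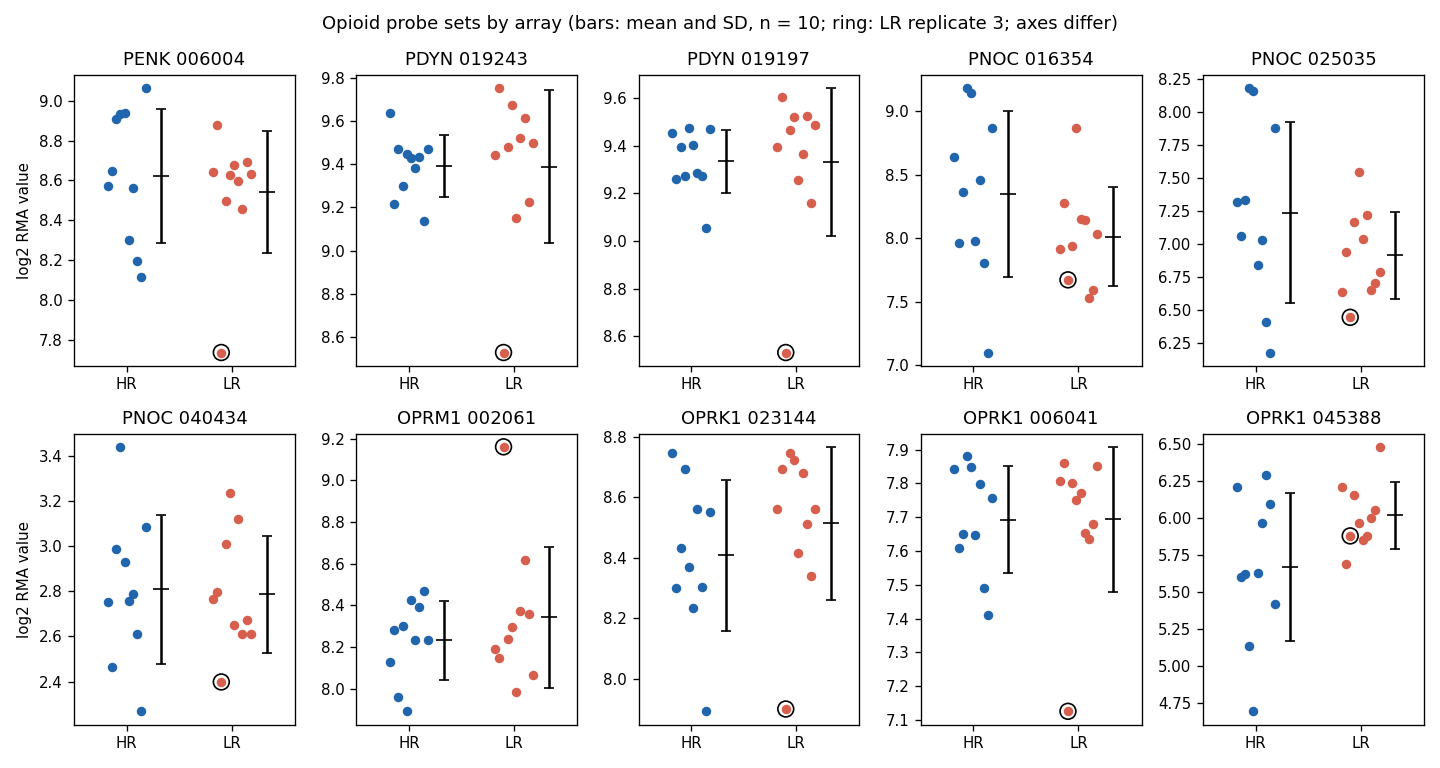
Each panel plots the log2 RMA values (y axis) of 1 opioid probe set in the 10 HR arrays on the left and the 10 LR arrays on the right, with the mean and SD as bars and the gene and probe set number as title. HR and LR values overlap in every panel, and the ringed array, LR replicate 3, is lowest in PENK (7.73) and in both PDYN panels (8.53) and highest in OPRM1 (9.16).

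Among the precursors, PENK was measured by 1 probe set (SNOWBALL_006004_st). Its log2 values had a lowest, median and highest of 8.11, 8.61 and 9.06 in HR and of 7.73, 8.63 and 8.88 in LR. The groups overlapped, and 6 of 10 HR values lay within the LR range. The mean was 8.62 ± 0.34 in HR and 8.54 ± 0.31 in LR (SD, n = 10 each), a difference of 0.08 ± 0.14 (limma adjusted p = 0.953). The lowest LR value was that of LR replicate 3. Without it the LR values lay between 8.45 and 8.88, with a mean of 8.63 ± 0.12, and the difference was -0.0098. HR values were spread more widely than these remaining LR values: replicates 3, 4, 5 and 10 had 8.91, 8.93, 8.94 and 9.06, while replicates 6, 8 and 9 had 8.30, 8.20 and 8.11. With LR replicate 3 kept, the SDs were 0.34 in HR and 0.31 in LR, and no test of spread was run.

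PDYN was read by a pair of probe sets that gave nearly the same picture. In the first (SNOWBALL_019243_s_st), HR had a lowest, median and highest log2 value of 9.14, 9.43 and 9.64, and LR of 8.53, 9.49 and 9.75. All 10 HR values fell inside the LR range. The means were 9.39 ± 0.14 in HR and 9.39 ± 0.36 in LR (SD, n = 10 each), and the difference was 0.0043 ± 0.12 (limma adjusted p = 0.998). The second (SNOWBALL_019197_st) had 9.06, 9.34 and 9.48 in HR and 8.53, 9.43 and 9.61 in LR, with a difference of 0.0030 ± 0.11 (limma adjusted p = 0.998). LR replicate 3 was the lowest array in both, at 8.53, and HR replicate 9 the second lowest, at 9.14 and 9.06. With LR replicate 3 left out, HR was lower by the point estimate in both probe sets, with differences of -0.09 ± 0.09 and -0.09 ± 0.08 that did not pass the test even unadjusted (limma p = 0.322 and 0.295). Over the 20 arrays the 2 probe sets correlated at r = 0.959.

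PNOC had the widest range among animals. In its brightest probe set (SNOWBALL_016354_s_st), the lowest, median and highest log2 values were 7.10, 8.41 and 9.18 in HR and 7.53, 7.98 and 8.87 in LR, and the span over all arrays was 4.24-fold. The mean was 8.35 ± 0.65 in HR and 8.01 ± 0.39 in LR (SD, n = 10 each), a difference of 0.34 ± 0.22 (95% interval -0.13 to 0.80, limma adjusted p = 0.916). Only 6 of 10 HR animals lay above the LR mean, and 7 of 10 within the LR range.

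HR replicates 4 and 5 were highest, at 9.18 and 9.15, followed by LR replicate 5 and HR replicate 10, both at 8.87. HR replicate 9 was lowest of all arrays, at 7.10. The second PNOC probe set (SNOWBALL_025035_s_st) had 6.18, 7.19 and 8.18 in HR and 6.45, 6.87 and 7.54 in LR, with a difference of 0.32 ± 0.22 (limma adjusted p = 0.916). The same HR animals were at its extremes. The third (SNOWBALL_040434_st) had a mean of 2.81 ± 0.33 in HR and 2.79 ± 0.26 in LR (SD, n = 10 each) and was below the mean of the background controls. Its difference was 0.021 ± 0.13 (limma adjusted p = 0.989). Leaving out HR replicate 9 moved the differences of the 2 brighter probe sets to 0.48 ± 0.20 and 0.44 ± 0.21, and neither was called (limma adjusted p = 0.629 in both).

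Of the receptors, OPRM1 was measured by 1 probe set (SNOWBALL_002061_st). The lowest, median and highest log2 values were 7.89, 8.26 and 8.47 in HR and 7.98, 8.27 and 9.16 in LR. The highest value was that of LR replicate 3, against a next LR value of 8.62, and 8 of 10 HR values lay within the LR range. The means were 8.23 ± 0.19 in HR and 8.34 ± 0.34 in LR (SD, n = 10 each), with a difference of -0.11 ± 0.12 (limma adjusted p = 0.928). It was -0.02 ± 0.10 without LR replicate 3, so most of the difference in means lay in that array.

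OPRK1 was read by 3 probe sets. In the brightest (SNOWBALL_023144_s_st) the lowest, median and highest log2 values were 7.89, 8.40 and 8.75 in HR and 7.90, 8.56 and 8.75 in LR. The lowest of each group were HR replicate 9 and LR replicate 3, and the others overlapped throughout. The means were 8.41 ± 0.25 in HR and 8.51 ± 0.25 in LR (SD, n = 10 each), a difference of -0.11 ± 0.12 (limma adjusted p = 0.928). In the second (SNOWBALL_006041_st) HR had 7.41, 7.70 and 7.88 and LR 7.13, 7.76 and 7.86, and the difference was -0.00056 ± 0.09 (limma adjusted p = 0.999). These 2 probe sets correlated over the arrays at r = 0.826.

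The dimmest OPRK1 probe set (SNOWBALL_045388_st) had 4.69, 5.63 and 6.29 in HR and 5.69, 5.98 and 6.48 in LR. HR reached lower, and 4 of 10 HR values lay within the LR range. The mean was 5.67 ± 0.50 in HR and 6.02 ± 0.22 in LR (SD, n = 10 each), a difference of -0.35 ± 0.17 (95% interval -0.69 to -0.0060, limma p = 0.0465, adjusted p = 0.916). A two-sided permutation test gave p = 0.0558 and an exact two-sided rank-sum test p = 0.123, both unadjusted. The lowest values were those of HR replicates 5, 4 and 10, at 4.69, 5.14 and 5.42, and without HR replicate 5 the difference was -0.24 ± 0.14. With each array left out in turn, its unadjusted p was 0.05 or more in 12 of 20 fits. Its correlation with the other OPRK1 probe sets was r = 0.028 and -0.184 over 20 arrays, and neither passed (adjusted permutation p = 0.908 and 0.491).

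**Figure D2:**
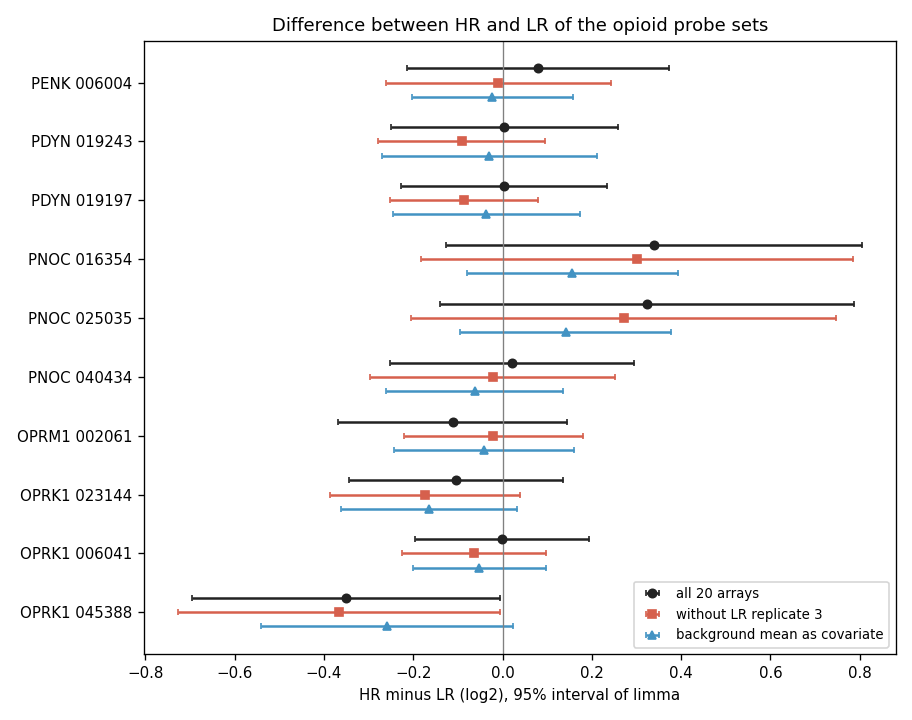
Differences HR minus LR (x axis, log2) of the 10 opioid probe sets, 1 per row, with the 95% interval of limma, for the fit of 20 arrays, for that lacking LR replicate 3 and for that holding the background control mean as a covariate. All intervals of the 3 fits hold 0 except those of the dimmest OPRK1 probe set, at -0.35 over all arrays and -0.37 without LR replicate 3, and none was called after adjustment.

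LR replicate 3 stood apart in regional markers as well. The mean log2 value of 23 measured hypothalamus markers, mostly transcription factors such as NKX2-1 and SIM1, lay between 6.54 and 7.25 in HR and between 6.69 and 7.07 in the other LR arrays, and was 6.07 in LR replicate 3. The mean of 13 thalamus markers, such as TCF7L2 and RORA, lay between 6.81 and 7.05 in HR and between 6.83 and 7.32 in the other LR arrays, and was 8.06 in LR replicate 3. Of 11 listed peptides of neurons that also hold an opioid peptide, 7 were lower in it than in every other LR array, among them KISS1 and TAC3, with 6.35 for KISS1 (kisspeptin) and 6.61 for TAC3 (neurokinin B), against at least 7.27 and 8.30 in HR and 7.02 and 7.52 in the other LR arrays. AVP (vasopressin), OXT (oxytocin) and CRH (corticotropin-releasing hormone) lay within the range of the other LR arrays, and NTS (neurotensin) was at 8.04, the highest of the LR arrays. By the marker means, this array was therefore lower in markers of the labelled tissue and higher in those of a neighbouring one, though not in every member. The thalamus markers LHX2 and PRKCD were lower in it than the mean of the other LR arrays, and the hypothalamus marker LHX9 was higher. The part of this array in the opioid values was measured only by leaving it out.

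Over all 20 arrays, the opioid genes followed the hypothalamus markers, though not these alone. PENK correlated with their mean at r = 0.869 (rho = 0.671), PDYN at 0.771 (rho = 0.585), PNOC at 0.753 (rho = 0.832) and OPRK1 at 0.688 (rho = 0.617), while OPRM1 ran the other way at -0.800 (rho = -0.589). All 5 passed the permutation test for both coefficients after adjustment over the 50 pairs of gene and marker list (adjusted p from 0.00025 to 0.00437 for r and from 0.000875 to 0.0255 for rho). Leaving out LR replicate 3 lowered r to 0.770 for PENK, 0.487 for PDYN, 0.525 for OPRK1 and -0.565 for OPRM1, while PNOC had 0.881. Without the 2 arrays farthest from the median marker mean, LR replicate 3 and HR replicate 5, r was 0.751 for PENK, 0.555 for PDYN, 0.856 for PNOC, -0.434 for OPRM1 and 0.694 for OPRK1.

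The hypothalamus marker mean itself followed the unspecific signal of the array described below, at r = 0.780. After regression of gene and marker mean on that signal, r was 0.872 for PDYN, 0.631 for PENK, 0.502 for OPRK1, -0.590 for OPRM1 and 0.215 for PNOC, so that PNOC had the weakest relation of the 5. With the hypothalamus marker mean as a covariate, the difference of the brightest OPRK1 probe set was -0.22 ± 0.08 (limma p = 0.0161, adjusted p = 0.933).

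The relation to the thalamus markers rested on LR replicate 3. PDYN had r = -0.717 (adjusted permutation p = 0.0333) and rho = 0.027 (adjusted p = 0.929), and r was -0.057 without that array and 0.424 when LR replicate 6, the next farthest, was left out too. PENK had r = -0.552 (adjusted permutation p = 0.0481) and rho = -0.066 (adjusted p = 0.815), and r was 0.065 and 0.042 in these subsets. Of the 50 relations to 10 marker lists, 36 passed by r and 21 by both coefficients. The share for other genes was not computed, so these counts are not a trait of the opioid genes. PNOC had a larger r in size with astrocyte (-0.853) and with striatum and pallium markers (0.792) than with hypothalamus markers. Each other gene had its largest r in size with hypothalamus markers. Still, PENK had r = -0.782 with neuron markers, and OPRK1 had rho = -0.728 with oligodendrocyte markers, above its rho with hypothalamus markers in size. Which cells carried the opioid RNA was not tested.

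**Figure D3:**
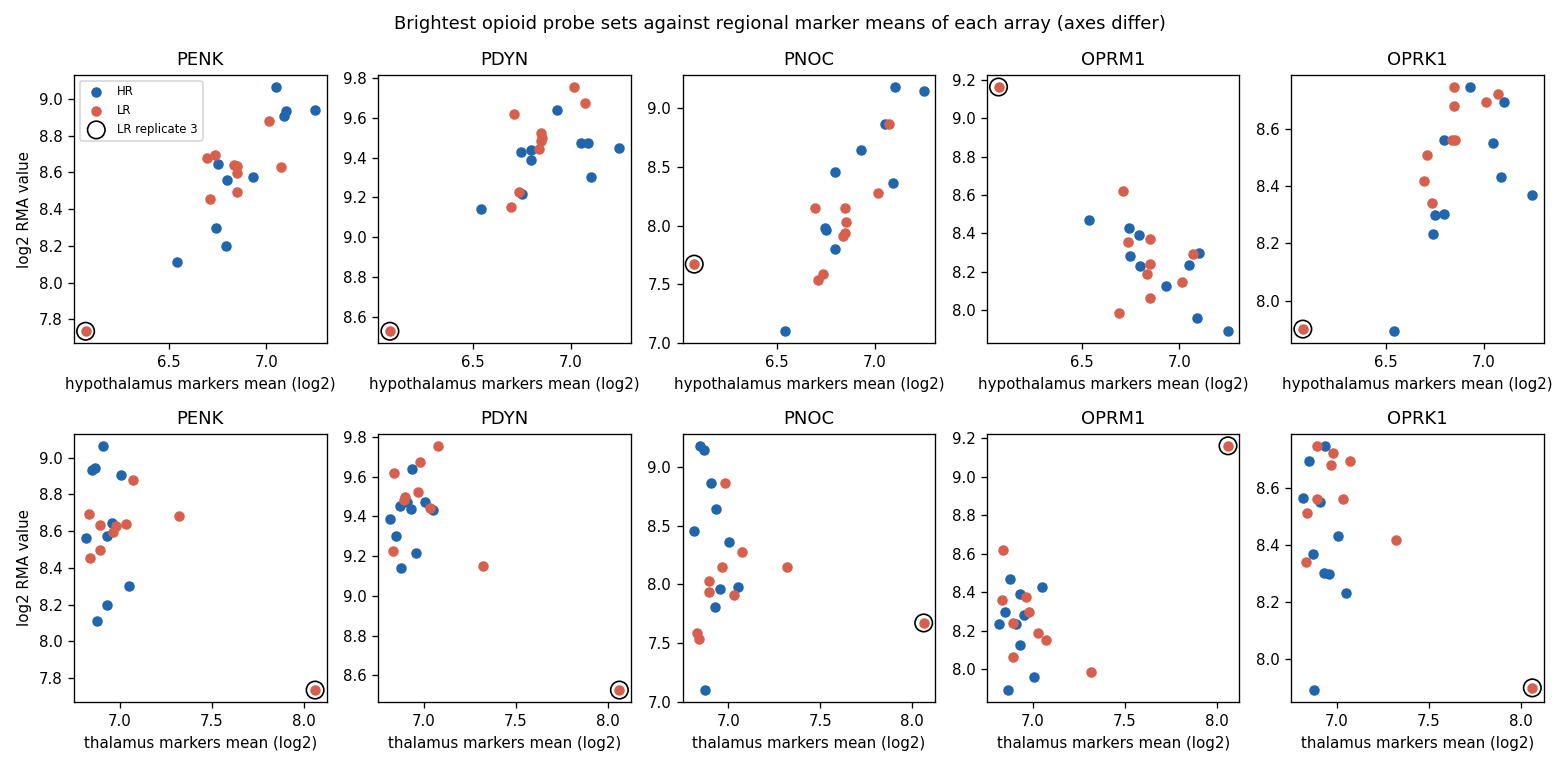
The brightest probe set of each measured opioid gene (y axis, log2 RMA value) is plotted against the mean of the hypothalamus markers (top row) and of the thalamus markers (bottom row) of each array (x axes, log2), with HR and LR arrays in separate colours and LR replicate 3 ringed. PENK, PDYN, PNOC and OPRK1 lie higher and OPRM1 lower in arrays with more hypothalamus marker signal, and in the bottom row LR replicate 3, at 8.06, lies far to the right of all other arrays.

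Unspecific signal also moved with the opioid genes. It was measured on 69 background control probe sets, whose mean was 4.09 ± 0.26 in HR and 4.01 ± 0.17 in LR (SD, n = 10 each, permutation p = 0.398). HR replicates 5, 4 and 10 had the highest means, at 4.44, 4.39 and 4.28, and these were the HR animals with the highest PNOC.

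The brightest PNOC probe set correlated with the background mean at r = 0.886 (rho = 0.916), and at 0.915 within HR and 0.818 within LR. PENK had r = 0.836 (rho = 0.802), with 0.937 within HR and 0.688 within LR. Both passed the permutation test (adjusted p = 5e-05 for r of PNOC and 6.67e-05 for r of PENK, over 10 probe sets), and r was 0.855 and 0.874 without the 2 arrays farthest from the median, LR replicate 8 and HR replicate 5. Of the receptors, OPRM1 was lower in arrays of high background, with r = -0.677 (rho = -0.689), and so was the dimmest OPRK1 probe set, with r = -0.628 (rho = -0.588). These passed as well (adjusted permutation p = 0.000717 and 0.00386 for r), and r was -0.582 and -0.533 without the 2 arrays named above.

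OPRM1 had r = -0.733 within HR and -0.747 within LR, while the dimmest OPRK1 probe set had -0.790 within HR and -0.073 within LR. The other OPRK1 probe sets ran upwards with background, at r = 0.545 and 0.697. PDYN did not pass the test, with r = 0.326 and 0.425 in its 2 probe sets (adjusted permutation p = 0.164 and 0.0662). In all, 8 of the 10 probe sets passed by both coefficients. The share over all probe sets was not computed, so this count is not a trait of the opioid genes. Marker means followed the background too, with r = -0.946 for astrocyte and -0.835 for neuron markers, but -0.279 for thalamus markers. With the background mean as a covariate, the PNOC difference was 0.16 ± 0.11 in the brightest probe set, that of the dimmest OPRK1 probe set -0.26 ± 0.14 and that of PENK -0.02 ± 0.09, and none was called. Whether RNA quality, tissue makeup or hybridisation set the background signal was not tested.

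**Figure D4:**
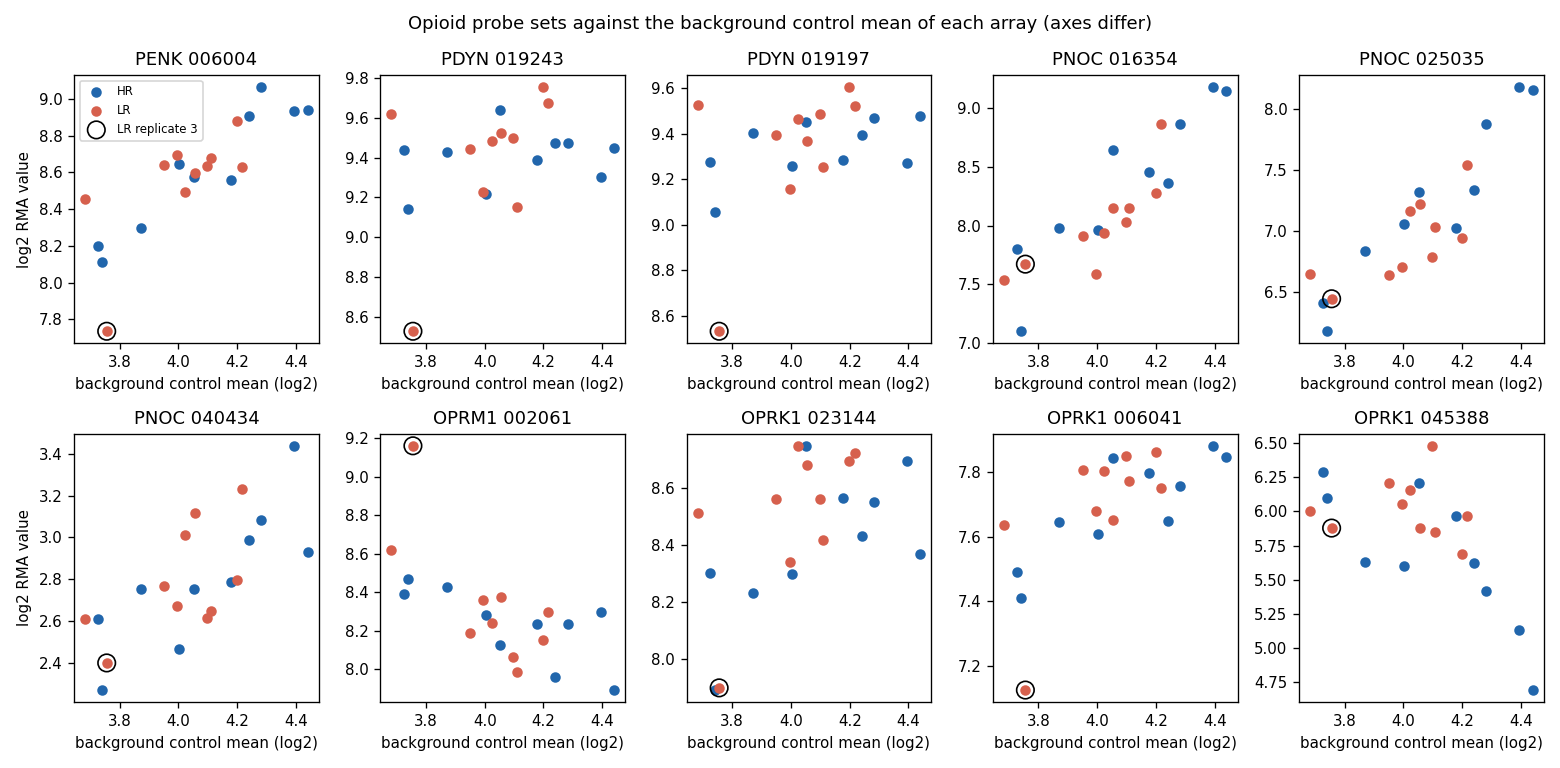
Each panel plots the log2 RMA value of 1 opioid probe set (y axis) against the background control mean of the array (x axis, log2) for the HR and LR arrays, with LR replicate 3 ringed. PNOC and PENK rise along the axis (r = 0.886 and 0.836 for the brightest probe sets), OPRM1 and the dimmest OPRK1 probe set fall (r = -0.677 and -0.628), and both PDYN panels show a weaker relation (r = 0.326 and 0.425).

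PDYN, the dynorphin precursor, and OPRK1, the gene of the dynorphin receptor, varied together among animals. Their brightest probe sets correlated at r = 0.764 (rho = 0.717, adjusted permutation p = 0.0008 for r and 0.006 for rho over the 10 pairs of genes). The relation was present within HR (r = 0.639) and within LR (r = 0.934, or 0.760 without LR replicate 3). It was 0.663 without LR replicate 3, 0.566 without LR replicate 3 and HR replicate 9, the 2 arrays farthest from the median of PDYN, and 0.740 after regression of both on the background mean. It was the 1 pair of the 10 that passed after that regression (adjusted permutation p = 0.0006). The other OPRK1 probe sets were not set against PDYN, and the dimmest did not follow the brightest. The pair was also not adjusted for the hypothalamus marker mean, which both genes followed.

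For the other pairs, 9 of the 10 passed by r over all arrays and 5 of the 10 by both coefficients, PDYN with OPRK1 included in each count. The share over all gene pairs was not computed, so these counts are not a trait of the opioid genes. PENK and OPRM1, the genes of the enkephalin precursor and of a receptor that binds enkephalins, ran in opposite directions, with r = -0.786 (rho = -0.663), -0.708 within HR and -0.896 within LR. Without LR replicate 3 this was -0.608, without LR replicate 3 and HR replicate 9 it was -0.555, and after regression on background -0.543 (adjusted permutation p = 0.0607). PENK and PNOC correlated at r = 0.686 (rho = 0.635), or 0.638 without LR replicate 3 and HR replicate 9, and at -0.220 after regression on background.

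A pair of relations of PDYN rested on LR replicate 3. PENK with PDYN had r = 0.579 but rho = 0.161, and r = 0.185 without that array and -0.029 without HR replicate 9 as well. PDYN with OPRM1 had r = -0.599 and rho = -0.295, and r = -0.041 and 0.097 in the same subsets. PDYN with PNOC did not pass at all, with r = 0.365 (adjusted permutation p = 0.115).

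**Figure D5:**
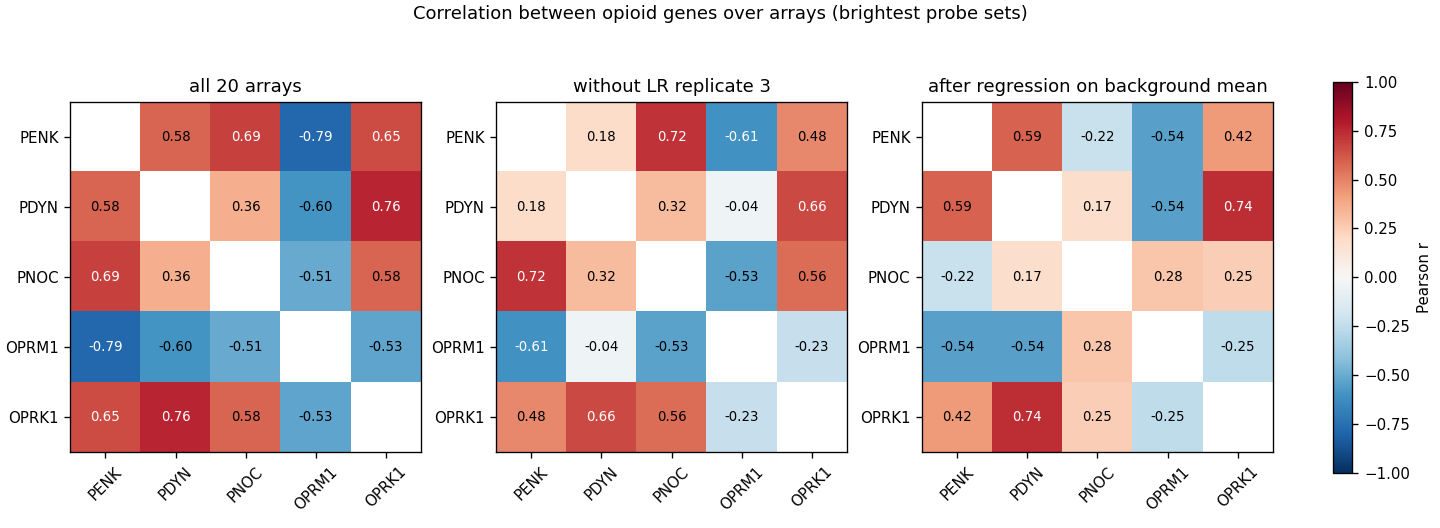
Each square gives Pearson r over arrays between the brightest probe sets of a pair of opioid genes (colour scale from -1 in blue to 1 in red), for all 20 arrays, without LR replicate 3 and after regression on the background control mean. PDYN with OPRK1 holds 0.76, 0.66 and 0.74 in the 3 panels, while PENK with PNOC turns from 0.69 over all arrays to -0.22 after regression.

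The peptides of neurons known to hold dynorphin were set against PDYN, with no test of the difference between their correlations. TAC3 correlated with PDYN at r = 0.692 (rho = 0.504), HCRT, the orexin precursor, at 0.526 (rho = 0.374) and KISS1 at 0.488 (rho = 0.165). By r, TAC3 and HCRT passed over the 55 pairs of opioid gene and peptide (adjusted permutation p = 0.00703 and 0.034), but none of the 3 passed by rho (adjusted p = 0.0677, 0.169 and 0.53). Without LR replicate 3, r was 0.410 for TAC3, 0.330 for HCRT and -0.024 for KISS1. Without the 2 arrays farthest from the median of the peptide, of which LR replicate 3 was one each time, it was 0.317, 0.105 and 0.124. Such values were not particular to these peptides. Of the other listed ones, CARTPT, SST and TRH had r = 0.724, 0.698 and 0.601 with PDYN over all arrays, while CRH, NTS and AGRP had 0.143, -0.253 and 0.465.

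AVP and OXT showed r = 0.086 and 0.199 with PDYN, and neither passed (adjusted permutation p = 0.719 and 0.423). AVP had 11.09 to 12.72 in HR and 11.53 to 12.35 in LR, and OXT 11.18 to 12.60 in HR and 11.48 to 12.32 in LR, so both defining peptides of the magnocellular hypothalamus were bright on every array. TRH, the thyrotropin-releasing hormone precursor, had r = 0.892 with PENK (rho = 0.768, adjusted permutation p = 0.00055 for r and 0.00293 for rho), 0.871 without LR replicate 3 and 0.834 without the 2 arrays farthest from the median of TRH, LR replicate 3 and HR replicate 9. After regression on background it was 0.640. TRH was not tied to PENK alone: it passed by both coefficients with PNOC (r = 0.787), OPRK1 (0.718) and OPRM1 (-0.665), and by r only with PDYN (0.601). TRH itself followed the background mean at r = 0.838. In all, 35 of the 55 pairs passed by r and 12 by both coefficients. The share for other genes was not computed here either.

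The genes whose pattern was most like each member were taken by r over the 20 arrays after subtraction of the group means, among 10285 genes. For PDYN these were IGSF1 (0.94), TRO (0.91), CLSTN2 (0.90), the hypothalamic transcription factor NKX2-1 (0.89) and GABRE, a GABA receptor subunit (0.88). IGSF1 kept the first rank without LR replicate 3, with r = 0.86, while CLSTN2, NKX2-1 and GABRE had ranks 39, 71 and 102. For OPRK1 they were ISLR2 (0.91), KCNMB4, a subunit of calcium-activated potassium channels (0.90), UNC119B (0.89), BCL6 (0.89) and TRO (0.88), and the first 3 kept their ranks without LR replicate 3. TRO was on the list of both PDYN and OPRK1, but had ranks 14 and 8 without LR replicate 3.

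For PENK they were OTOF (0.96), FAM171A2 (0.94), GAA (0.93), SND1 (0.93) and CITED1 (0.92), and OTOF had 0.89 after regression on background. Without LR replicate 3, OTOF, FAM171A2, GAA, SND1 and CITED1 had ranks 2, 1, 67, 25 and 62. For PNOC they were GPAA1 (0.95), LRRN2 (0.94), MPP2 (0.94), CCDC106 (0.94) and DUSP26 (0.94), which had between 0.67 and 0.73 after that regression. For OPRM1 they were INPP4B (0.88), PHKB (0.86), SGTB (0.85), MCF2 (0.85) and PTPN4 (0.84). Without LR replicate 3, INPP4B, PHKB, SGTB, MCF2 and PTPN4 had ranks 8, 7, 120, 24 and 135, and FRMD3 was first (0.92). These likenesses are descriptions over 20 arrays that share the background and the array just described.

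The wider opioid pathway was examined in 5 lists by the brightest probe set of each gene, and none of its genes was called. Over all 13664 genes, 594 were at an unadjusted p under 0.05, 7340 were higher and 6324 lower in HR, and the median difference was 0.015. Without LR replicate 3 the whole array shifted as well, to 455 at that p, 7004 higher, 6660 lower and a median of 0.0040. The direction counts of the lists below are to be read beside these. Among 7 of 8 listed genes of other opioid and opioid-modulating peptides and their receptors, 0 were at an unadjusted p under 0.05 and the median difference was 0.013, or -0.012 without LR replicate 3. The smallest p were those of OGFRL1, a relative of the opioid growth factor receptor, at -0.24 ± 0.19 and of the neuropeptide FF receptor gene NPFFR2 at -0.19 ± 0.16 (limma adjusted p = 0.916 in both). No probe set was listed for POMC, the beta-endorphin precursor, which was not analysed here.

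Precursor processing was represented by 7 of 11 listed genes, with 0 at an unadjusted p under 0.05, 3 higher and 4 lower in HR and a median of -0.11. CPE, carboxypeptidase E, which trims the cut peptides, had 12.48 ± 0.31 in HR and 12.69 ± 0.11 in LR (SD, n = 10 each), a difference of -0.21 ± 0.11. QPCT, glutaminyl cyclase, had -0.28 ± 0.17. Both had a limma adjusted p of 0.916. Correlations of CPE and QPCT with the background mean were -0.762 and -0.633.

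Of 12 of 13 listed peptidases that break opioid peptides down, 1 was at an unadjusted p under 0.05, 9 were higher and 3 lower in HR, and the median was 0.048. It was PREP, prolyl endopeptidase, with 7.91 ± 0.14 in HR and 8.10 ± 0.09 in LR (SD, n = 10 each), a difference of -0.19 ± 0.07 (limma p = 0.0165, adjusted p = 0.916). PREP had r = 0.170 with the background mean and a difference of -0.21 with that mean as a covariate. NPEPPS, the puromycin-sensitive aminopeptidase, had -0.34 ± 0.21 and followed the background mean at r = -0.921.

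Receptor signalling was represented by 35 of 47 listed genes of G proteins, adenylyl cyclases, channels, regulators and arrestins, with 1 at an unadjusted p under 0.05, 19 higher and 16 lower in HR and a median of 0.010. Leaving out LR replicate 3 gave 0 at that p, 14 higher and 21 lower, and a median of -0.012. It was RGS7, which speeds the switching off of G proteins, with 7.09 ± 0.66 in HR and 7.62 ± 0.53 in LR (SD, n = 10 each), a difference of -0.53 ± 0.25 (limma p = 0.0426, adjusted p = 0.916). RGS7 correlated with the background mean at r = -0.855, and its difference was -0.33 with that mean as a covariate. GPRASP2, a receptor-sorting protein, had -0.26 ± 0.13 and r = -0.727 with the background mean.

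Of 11 of 12 listed peptides of neurons that also hold an opioid peptide, 0 were at an unadjusted p under 0.05, 8 were higher and 3 lower in HR, and the median was 0.041. These turned to 4 higher, 7 lower and a median of -0.027 without LR replicate 3. TAC3 had 8.83 ± 0.41 in HR and 8.30 ± 0.89 in LR (SD, n = 10 each), a difference of 0.53 ± 0.28 that was 0.34 without LR replicate 3. HCRT had 9.72 ± 0.56 in HR and 9.44 ± 0.41 in LR (SD, n = 10 each), a difference of 0.27 ± 0.20. Neither was called (limma adjusted p = 0.916 in both).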

How the data were processed

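Total RNA of the hypothalamus of 20 pigs was measured on 1 array per animal. The deposited values are log2 expression values: the authors processed the scans with GCOS 1.1.1 (named in the submitters' processing notes) and normalised with RMA (robust multichip average). This subtracts background, forces all arrays onto 1 distribution and combines the probes of each probe set, so a change that moves most transcripts one way is hidden, and dim probe sets show compressed differences. The study's filter on detection above background was not applied, since the table holds all 47845 probe sets. Of these, 123 controls were set aside and 47722 tested.

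The platform annotation gave 1 gene symbol to 26426 of the tested probe sets, for 13664 genes, and 446 symbols were updated through RefSeq (Sscrofa11.1). Names ending in _s_st or _x_st mark probe sets that may bind several transcripts, whose gene is therefore uncertain. The HR minus LR difference was fitted without covariates in limma 3.58.1 (R 4.3.3; lmFit, eBayes), with Benjamini-Hochberg adjustment over all tested probe sets and a threshold of 0.05. Correlations over arrays and group means of single values were tested by two-sided permutation with 100000 permutations, adjusted within each family. Array medians lay between 5.14 and 5.26, and the number of arrays limits the precision. In data simulated from a random split of the arrays with 47722 probe sets, limma found 30 of the 100 spiked by 0.5 log2 units. It found 89 of the 100 spiked by 1 unit and made 18 false calls, a larger share of all calls than the 0.05 threshold. All spikes sat in 1 fit, where many calls ease the adjustment. The recovery therefore overstates that of a lone changed probe set in these data, where 0 were called.

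The members and lists were chosen with earlier results of these data known. Named genes were all probe sets of the members, the 2 genes of smallest p in each pathway list, the 5 genes most alike to each member, and a set of peptides beside PDYN. AGRP, CARTPT, CRH, NTS, SST, TRH, FRMD3 and the marker examples were named after their values were seen. Replicate numbers follow accession order, pair no animals and only name the arrays. Alternatives covered the brightness filter, normalisation, centring, array weights, covariates, rank and permutation tests and leaving out each array.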

Additional observations from a re-analysis of the deposited data

Results flagged for a closer look

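Arrays were looked for whose gap to the nearest array of their own group was larger than Dixon's 95% critical value, in the opioid probe sets, the background mean, the marker lists and the co-held peptides. Of 64 groups of values, 12 held such an array, where chance flags about 1 in 20, and 9 of the 12 were LR replicate 3. In that array PENK was lowest of the LR arrays at 7.73, against 8.45 in the nearest, and both PDYN probe sets were lowest at 8.53, against 9.15 and 9.16. OPRK1 was lowest in its 2 brighter probe sets, at 7.90 against 8.34 and at 7.13 against 7.64. The hypothalamus marker mean was lowest at 6.07, the thalamus marker mean highest at 8.06 and the neuron marker mean highest at 10.09. CARTPT, a precursor of hypothalamic peptides, was lowest at 8.59. The other 3 were HR replicate 9, lowest of the HR arrays in the second PDYN probe set at 9.06, in the striatum and pallium marker mean at 6.24 and in HCRT at 8.48. The values are not independent, since the marker lists and genes were read on the same arrays, and the cause was not tested.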

How the results depend on the processing

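Under all 31 other fits, 0 opioid probe sets and 0 of all probe sets were called. The number of opioid probe sets at an unadjusted p under 0.05, 1 over all arrays, was 2 with array weights and 0 with the background mean, the Y-linked mean or the striatum and pallium mean as a covariate or after removal of 7 arrays whose background lay over 1 SD from the average. It lay between 0 and 3 when each array was left out, with 3 without HR replicate 9, where 2 PNOC probe sets were added. With the hypothalamus mean as a covariate it was 1 as well, but the brightest OPRK1 probe set in place of the dimmest. Over all probe sets the number was 2180, and leaving out single arrays gave 1385 (HR replicate 5) to 4069 (HR replicate 8), with 3547 with array weights and 1091 in the brighter 50%. The Y-linked mean, of 2 genes, followed the background mean (r = -0.943), so its covariate largely repeats that one. The covariates of the hypothalamus and the striatum and pallium lists and the removal of those 7 arrays were added once values had been seen.

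PNOC in its 2 brighter probe sets, OPRK1 in the brightest and the dimmest and OPRM1 kept their direction in all these fits, except OPRM1, which was 0.0083 with the hypothalamus mean as a covariate. The other probe sets lay near 0 and turned. PENK was -0.023 with the background mean, -0.026 with the Y-linked mean, -0.032 with the thalamus mean, -0.054 with the striatum and pallium mean and -0.076 with the hypothalamus mean as a covariate, -0.058 without the 7 arrays and -0.0205 as a difference of medians. The first PDYN probe set was -0.0153 after centring on array medians, -0.030, -0.032, -0.126, -0.065 and -0.116 with those covariates in the same order, -0.041 without the 7 arrays and -0.057 as a difference of medians. The second was -0.0166 after centring, -0.0078 with array weights, -0.037, -0.040, -0.112, -0.066 and -0.109 with the covariates, -0.048 without the 7 arrays and -0.090 as a difference of medians. The dim PNOC probe set was -0.0029 after repeated quantile normalization, -0.0204 with array weights, -0.063, -0.0698, -0.041, -0.081 and -0.102 with the covariates and -0.108 without the 7 arrays. The second OPRK1 probe set was 0.030 after repeated quantile normalization.

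With each array left out in turn, PENK lay between -0.0098 and 0.14, PDYN between -0.092 and 0.045 and between -0.086 and 0.034, PNOC between 0.25 and 0.48, between 0.22 and 0.44 and between -0.049 and 0.081, OPRM1 between -0.15 and -0.021, and OPRK1 between -0.17 and -0.048, between -0.064 and 0.031 and between -0.42 and -0.24. Of the 10 pairs of opioid genes, 9 passed by r over all arrays, 5 without LR replicate 3 and 1 after regression on the background mean, where PENK with PNOC was -0.220 and PNOC with OPRM1 was 0.279. Of the 10 relations to the background mean, 8 passed over all arrays and 7 without LR replicate 3. The shares over all gene pairs and all probe sets were not computed beside these counts. Of 77 measured genes of the pathway lists and the opioid genes, 2 were at an unadjusted p under 0.05 over all arrays. These were 4 when the probe sets of each gene were averaged and 1 without LR replicate 3. Over all 13664 genes the counts in the same settings were 594, 641 and 455, so the list counts show nothing particular to the pathway. The causes were not tested. Limits are the number of arrays, dim signal and probe sets that may bind several transcripts.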

Other observations

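SST, the somatostatin precursor, varied with every measured opioid gene among animals. It had r = 0.698 with PDYN, 0.728 with OPRK1, 0.723 with PENK, 0.694 with PNOC and -0.636 with OPRM1. The pair with PNOC passed by both coefficients (rho = 0.752, adjusted permutation p = 0.00367 for r and 0.00371 for rho). Those with PENK and OPRM1 passed by r only (adjusted permutation p = 0.075 for rho in both). The pair with OPRK1 passed by both coefficients (rho = 0.672, adjusted permutation p = 0.00364 for r and 0.0137 for rho over 55 pairs), the pair with PDYN by r only (rho = 0.552, adjusted p = 0.0507). Without LR replicate 3, r was 0.511 for PDYN and 0.616 for OPRK1, and within HR 0.346 and 0.671. Without the 2 arrays farthest from the median of SST, LR replicate 3 and HR replicate 6, it was 0.591 and 0.572. NTS ran against PENK, with r = -0.663 (rho = -0.662, adjusted permutation p = 0.00799 for r and 0.0158 for rho), -0.572 without LR replicate 3, -0.526 without the 2 arrays farthest from the median of NTS, LR replicate 3 and HR replicate 5, and -0.057 after regression on the background mean.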
